A study of Homo sapiens with 8 samples.

Results

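The genes described here are 49 histone lysine methyltransferases, histone demethylases and nucleosome remodelers, taken by symbol from the table of expression values. All 49 of the listed symbols were found among its 17056 gene rows, and the rule that lists them uses no measured value. The cells were A549, an established human lung adenocarcinoma line, sampled as total RNA in 8 RNA-seq libraries with 2 in each of 4 groups. The knockdown group (titled ASO) had the long non-coding RNA AFAP1-AS1 knocked down, and its control (titled ASONC) is labelled as a negative control. The overexpression group (titled OE) had AFAP1-AS1 overexpressed, and its control (titled vector) is labelled as the vector. ASO commonly stands for antisense oligonucleotide, which the labels do not spell out. The labels give neither a time after treatment nor a dose, and do not say whether replicates came from separate cultures or clones. P-values therefore reflect only how far these libraries differ within a group, and that spread may be technical.

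Histone lysine methyltransferases place methyl groups on lysines of histones such as H3 and H4, using S-adenosylmethionine as the donor. Demethylases of the LSD1 and JmjC families take such groups off again. Methylated H3K4 and H3K36 are found on active genes, whereas methylated H3K9 and H3K27 are found on silent chromatin. Nucleosome remodelers of the CHD, SWI/SNF, ISWI and INO80 families use ATP to slide, evict or exchange histones, and ATRX deposits the variant H3.3 at repeats and telomeres. A549 cells are known to carry a loss-of-function mutation of SMARCA4, a catalytic subunit of SWI/SNF.

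The libraries held between 33662221 and 37508996 recovered reads (reads worked back from the FPKM steps), so depth differed little between groups. AFAP1-AS1 is not analysed here, so its level gave no check of the group labels. Genes at 0 numbered 1435 and 1341 in the knockdown control libraries and 2205 to 2327 elsewhere. Comparisons of knockdown with the vector control, whose fold changes leave the knockdown control libraries out, are given beside those that use them. The knockdown control libraries still enter the shared estimate of spread behind the p-values. Of 12 markers of the line, 10 or 11 reached 1 FPKM in both libraries of a group. The sums of the 12 ran from 8350 to 9120 FPKM, led by ALDH1A1, AKR1B10 and the keratins KRT7, KRT8 and KRT18. The epithelial marker EPCAM stayed under 1 FPKM in every library, at 0.386 to 0.862 FPKM. The epithelial adhesion gene CDH1 had 0.841 to 1.78 FPKM in knockdown and knockdown control libraries and 3.55 to 4.42 FPKM in overexpression and vector control libraries. Endothelial markers summed to 0.0899 to 0.319 FPKM in knockdown and knockdown control libraries and to 1.03 to 1.78 FPKM in overexpression and vector control libraries, while fibroblast markers, mostly COL1A1, summed to at most 2.62 FPKM in knockdown and knockdown control libraries and to at most 0.767 FPKM in overexpression and vector control libraries. Blood markers summed to 1.57 to 2.70 FPKM, nearly all CD14, and PTPRC, the defining marker of white blood cells, was at or near 0 in every library. The part of these differences in the results was not tested.

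In the knockdown and knockdown control libraries the chromatin genes as a set stood lower than in the overexpression and vector control libraries. The median of their 49 group means was 6.18 FPKM with knockdown, 6.07 FPKM in the knockdown control, 8.99 FPKM with overexpression and 8.96 FPKM in the vector control. Over all 10648 genes tested the same medians lay between 9.08 and 9.35 FPKM, so the lower level was not seen in the median of all genes. The 49 genes took 0.339% and 0.350% of recovered reads in knockdown libraries and 0.332% and 0.328% in knockdown control libraries. They took 0.476% and 0.453% in overexpression libraries and 0.472% and 0.454% in vector control libraries. In bulk RNA, fewer cells expressing a gene and less RNA per cell cannot be told apart.

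Levels spread widely among the 49 genes. CHD4 and CHD3, the remodeler subunits of NuRD, were the highest in the vector control, at 34.7 ± 1.08 and 31.8 ± 0.705 FPKM (SD, n = 2), followed by the H3K4 demethylase KDM1A at 26.0 ± 0.212, the ISWI ATPase SMARCA1 at 23.5 ± 1.41 and the methyltransferase SETD7 at 21.0 ± 0.862. FPKM is scaled by transcript length but not by GC content, so the ranking of levels between genes is rough. CHD4 also shares 53.5% of its exonic bases with other annotated genes. The lowest were KDM4B at 2.38 ± 0.122, KDM4C at 2.31 ± 0.0357 and KDM7A at 0.901 ± 0.122 FPKM. KDM7A, a demethylase of H3K9 and H3K27, stayed under 1 FPKM in the mean of every group and was the single gene not tested, which leaves 48. SMARCA4 was read in every library, at 2.54 to 3.56 FPKM, below its paralogue SMARCA2 at 5.61 to 6.41 FPKM. KMT2C has related duplicated segments elsewhere in the genome, so its reads may be split between copies.

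**Figure D1:**
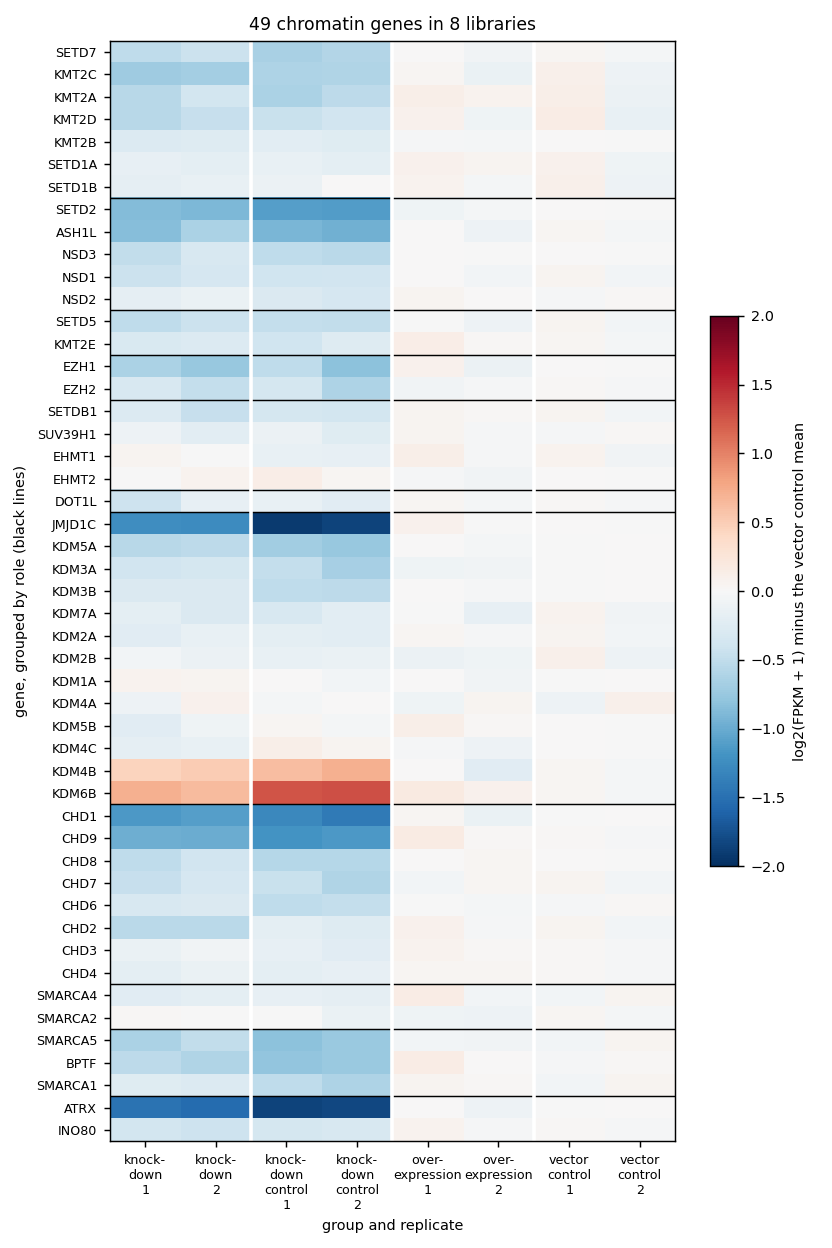
Each row is a gene and each column a library; colour is log2(FPKM + 1) minus the mean of the vector control libraries, blue for lower and red for higher, with black lines between role groups. The columns of the knockdown and knockdown control libraries are mostly blue, deepest for JMJD1C and ATRX, and KDM6B and KDM4B are red in the same columns, while the overexpression columns are near white.

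Fold changes below are differences of log2(FPKM + 1), which understates the change of low genes, and each is given with its standard error (SE). A gene is said to have risen or fallen where its limma p, adjusted by Benjamini-Hochberg over the 10648 genes tested, was below 0.05.

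Promoters were read from RefSeq on GRCh38.p14 for the 42 of 49 genes with an entry (ATRX, BPTF, CHD6, CHD7, DOT1L, NSD3 and SETD1B had none). Each is the 250 bases before and 50 after an annotated start, with a single window kept per gene. Other starts of a gene were not searched, and the window of JMJD1C (chr10:63269194-63269493), for example, lies inside the gene. The windows were GC-rich, with a median GC content of 66.8% and 29 CpG sites, beside 65.7% and 27 in 8702 genes tested. The motif CCAAT, searched on both strands, was in 23.8% of the 42 promoters and in 37.0% of those of genes tested. The ETS core CCGGAAG was in 14.3%, beside 21.0%, and the YY1 letters AAGATGGC in 2.38%, beside 6.09%. The NRF1 letters CGCATGCG were in 4.76%, beside 4.10%, the E2F letters TTTCCCGC or TTTGGCGC in 4.76%, beside 4.02%, and the AP-1 letters TGANTCA in 4.76%, beside 4.27%. The CRE letters TGACGTCA and the TATA box TATAAA were in 0 of the 42, beside 3.57% and 5.21%. Over all 27305 promoters the shares were 35.7% for CCAAT, 10.7% for ETS, 3.03% for YY1, 2.19% for NRF1, 2.31% for E2F, 7.76% for AP-1, 1.98% for CRE and 12% for TATA. All were searched on both strands, and no match says only that these letters are not in the window.

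Promoters of 3 members with CCAAT letters are shown as examples, picked to include genes that moved in opposite directions. Whether these letters relate to a change was not tested. KDM4B (chr19:4968863-4969162, plus strand) rose in the knockdown control set against the vector control and holds 4 CCAAT matches. EZH2 (chr7:148884242-148884541, minus strand) fell and also holds 4, with an E2F match. CHD1 (chr5:98928958-98929257, minus strand) fell and holds 1. Each is written 5′ to 3′ on the strand of the gene, and capitals mark CCAAT or its reverse complement ATTGG and, in EZH2, the E2F letters, which overlap no other match.
KDM4B: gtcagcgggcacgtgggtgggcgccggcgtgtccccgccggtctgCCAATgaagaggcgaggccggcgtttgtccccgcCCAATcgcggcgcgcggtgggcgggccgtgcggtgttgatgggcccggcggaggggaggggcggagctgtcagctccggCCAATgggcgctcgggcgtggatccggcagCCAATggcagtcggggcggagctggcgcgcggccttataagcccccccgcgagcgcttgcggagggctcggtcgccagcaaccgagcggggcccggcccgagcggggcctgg
EZH2: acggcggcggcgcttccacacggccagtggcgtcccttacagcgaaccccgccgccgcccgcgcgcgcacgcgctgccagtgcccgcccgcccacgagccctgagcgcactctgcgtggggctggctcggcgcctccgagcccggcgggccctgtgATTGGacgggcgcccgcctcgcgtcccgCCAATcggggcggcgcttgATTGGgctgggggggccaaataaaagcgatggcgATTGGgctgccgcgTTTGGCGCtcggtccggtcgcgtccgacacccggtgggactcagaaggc
CHD1: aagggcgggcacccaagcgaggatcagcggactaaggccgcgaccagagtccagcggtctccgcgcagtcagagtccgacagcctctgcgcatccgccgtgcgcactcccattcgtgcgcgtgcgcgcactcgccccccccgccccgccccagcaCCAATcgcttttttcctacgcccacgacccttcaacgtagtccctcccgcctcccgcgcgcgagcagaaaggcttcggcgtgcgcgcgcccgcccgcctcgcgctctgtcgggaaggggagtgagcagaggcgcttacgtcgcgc
The windows of KDM6B (chr17:7833967-7834266, plus strand) and SETD2 (chr3:47164064-47164363, minus strand) held none of the 8 motifs. The printed promoters were chosen after the values of their genes were seen.

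Overexpression of AFAP1-AS1 was compared with the vector control to ask what gain of the RNA does. None of the 48 genes tested was called, against 0.0657% of all genes tested (7 genes). None had an unadjusted limma p below 0.05 either, and voom on recovered reads called 0, with 2 at an unadjusted p below 0.05. Their median log2 fold change was -0.01, beside 0.00 over all genes. All 11 role groups had 0 calls. The smallest p belonged to KDM6B, the H3K27 demethylase also called JMJD3.

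KDM6B had 6.38 and 5.98 FPKM in knockdown libraries, 9.79 and 10.04 FPKM in knockdown control libraries, 4.13 and 3.77 FPKM in overexpression libraries and 3.65 and 3.38 FPKM in vector control libraries. Both overexpression libraries lay above both vector control libraries, by a log2 fold change of 0.13 ± 0.07 (limma adjusted p = 0.797). CHD9, a CHD remodeler, had 3.61 and 3.57 FPKM in knockdown libraries, 2.98 and 3.12 FPKM in knockdown control libraries, 9.25 and 8.29 FPKM in overexpression libraries and 8.25 and 7.96 FPKM in vector control libraries. Its difference with overexpression was 0.10 ± 0.07 (limma adjusted p = 0.884). SMARCA2 had 6.29 and 6.20 FPKM in knockdown libraries, 6.16 and 5.61 FPKM in knockdown control libraries, 5.82 and 5.73 FPKM in overexpression libraries and 6.41 and 6.02 FPKM in vector control libraries. It was -0.09 ± 0.07 with overexpression (limma adjusted p = 0.894), with no overlap between those groups.

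EZH2, the main catalytic subunit of the Polycomb complex PRC2, had 7.40 and 6.54 FPKM in knockdown libraries, 7.19 and 5.80 FPKM in knockdown control libraries, 8.91 and 9.34 FPKM in overexpression libraries and 9.57 and 9.35 FPKM in vector control libraries. Its log2 fold change with overexpression was -0.05 ± 0.09 (limma adjusted p = 0.983). SMARCA4 had 2.54 and 2.62 FPKM in knockdown libraries, 2.67 and 2.66 FPKM in knockdown control libraries, 3.56 and 2.99 FPKM in overexpression libraries and 2.96 and 3.30 FPKM in vector control libraries. The overexpression and vector control values overlapped, and the difference was 0.05 ± 0.09 (limma adjusted p = 0.983). Over the 48 genes, both overexpression libraries lay above both vector control libraries in 5 and below them in 8, where 18.2% and 16.9% of all genes tested did so.

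Knockdown of AFAP1-AS1 was compared with the knockdown control to ask what loss of the RNA does. Of the 48 genes, 8 rose, against 11.3% of all genes tested, and 2 fell, against 10.9%. The members that rose were JMJD1C, ATRX, the 3 ISWI genes SMARCA1, SMARCA5 and BPTF, the H3K36 methyltransferase SETD2 and the H3K9 demethylases KDM3A and KDM3B. Those that fell were KDM6B and CHD2. The median log2 fold change was 0.07, beside 0.02 over all genes. Of the calls over all genes 50.8% were higher, against 62.1% under median-of-ratios and 66.4% under TPM scaling, where CHD1, KDM5A, NSD2 and SETD7 also rose. Both knockdown libraries lay above both knockdown control libraries in 22 of the 48 genes and below them in 11, beside 34.4% and 28.1% of all genes tested.

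JMJD1C, a KDM3-family protein whose demethylase activity is disputed, had 3.44 and 3.41 FPKM in knockdown libraries, 1.78 and 1.91 FPKM in knockdown control libraries, 10.2 and 9.48 FPKM in overexpression libraries and 9.57 and 9.45 FPKM in vector control libraries. It rose by 0.64 ± 0.07 with knockdown (limma adjusted p = 8.16e-05), to 186% of the knockdown control mean in FPKM. The knockdown libraries stood between the knockdown control libraries and the other 4, with no overlap. Of its relatives that remove H3K9 methylation, KDM3B had 14.5 and 14.6 FPKM in knockdown libraries and 12.3 and 12.2 FPKM in knockdown control libraries, with 18.1 and 17.7 FPKM in overexpression libraries and 18.0 and 18.1 FPKM in vector control libraries, and rose by 0.23 ± 0.05 (limma adjusted p = 0.00832). KDM3A had 13.5 and 13.8 FPKM in knockdown libraries and 12.6 and 10.97 FPKM in knockdown control libraries, and rose by 0.20 ± 0.06 (limma adjusted p = 0.0452). The KDM3A call was lost without either knockdown library or without any overexpression or vector control library, and without knockdown control replicate 2 its value was 0.10 (limma adjusted p = 0.310). The KDM3B call was lost without knockdown replicate 2 (0.22, limma adjusted p = 0.0523). That of JMJD1C held in all 20 alternatives.

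ATRX had 3.48 and 3.28 FPKM in knockdown libraries, 2.43 and 2.52 FPKM in knockdown control libraries, 11.4 and 10.6 FPKM in overexpression libraries and 11.3 and 11.6 FPKM in vector control libraries. It rose by 0.33 ± 0.07 with knockdown (limma adjusted p = 0.00575), to a level still far below that of the overexpression and vector control libraries. SETD2, which trimethylates H3K36 along transcribed genes, had 6.22 and 6.13 FPKM in knockdown libraries, 5.14 and 5.11 FPKM in knockdown control libraries, 11.5 and 11.8 FPKM in overexpression libraries and 12.3 and 12.1 FPKM in vector control libraries. It rose by 0.23 ± 0.06 (limma adjusted p = 0.0187), a call that was lost without any 1 of the 4 knockdown and knockdown control libraries (values of 0.22 to 0.24, limma adjusted p = 0.0597 to 0.0824). The other 4 H3K36 methyltransferases (NSD1, NSD2, NSD3 and ASH1L) had log2 fold changes of 0.01 to 0.20 and were not called.

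All 3 ISWI genes rose with knockdown. SMARCA1, the SNF2L ATPase, had 19.6 and 19.3 FPKM in knockdown libraries, 16.2 and 15.0 FPKM in knockdown control libraries, 24.6 and 23.9 FPKM in overexpression libraries and 22.5 and 24.5 FPKM in vector control libraries, a rise of 0.30 ± 0.06 (limma adjusted p = 0.00345). SMARCA5, the SNF2H ATPase, had 11.1 and 12.3 FPKM in knockdown libraries, 9.56 and 10.2 FPKM in knockdown control libraries, 16.9 and 16.9 FPKM in overexpression libraries and 17.1 and 18.4 FPKM in vector control libraries, a rise of 0.23 ± 0.07 (limma adjusted p = 0.0274). BPTF, the large subunit of the NURF complex and not itself an ATPase, averaged 7.42 ± 0.348 FPKM with knockdown and 6.32 ± 0.148 FPKM in the knockdown control (SD, n = 2), a rise of 0.20 ± 0.07 (limma adjusted p = 0.0495). Neither SMARCA5 nor BPTF was called after the length and GC correction described further on. Leaving out any of the 8 libraries ended the BPTF call, with values of 0.16 to 0.24 (limma adjusted p = 0.0502 to 0.222). The SMARCA5 call was lost without knockdown replicate 2 (0.16, limma adjusted p = 0.206), knockdown control replicate 1 (0.19, limma adjusted p = 0.140) or knockdown control replicate 2 (0.27, limma adjusted p = 0.0521).

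KDM6B fell by 0.61 ± 0.07 with knockdown (limma adjusted p = 0.000167), to 62.3% of the knockdown control mean in FPKM. Its knockdown libraries, at 6.38 and 5.98 FPKM, stood between the knockdown control libraries and the other 4. CHD2, a remodeler of active chromatin, had 13.0 and 12.9 FPKM in knockdown libraries, 16.8 and 16.0 FPKM in knockdown control libraries, 20.5 and 19.0 FPKM in overexpression libraries and 20.1 and 18.4 FPKM in vector control libraries. It fell by 0.32 ± 0.06 (limma adjusted p = 0.0035), and its knockdown libraries were the lowest of the 8. The other 7 CHD genes had values of 0.01 to 0.23 and were not called. The H3K4, H3K9, H3K27 and H3K79 methyltransferases had values of -0.11 to 0.18, none of them called. EZH2 had 0.09 ± 0.09 (limma adjusted p = 0.486), SMARCA4 had -0.03 ± 0.09 (limma adjusted p = 0.823) and SMARCA2 had 0.07 ± 0.07 (limma adjusted p = 0.481).

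**Figure D2:**
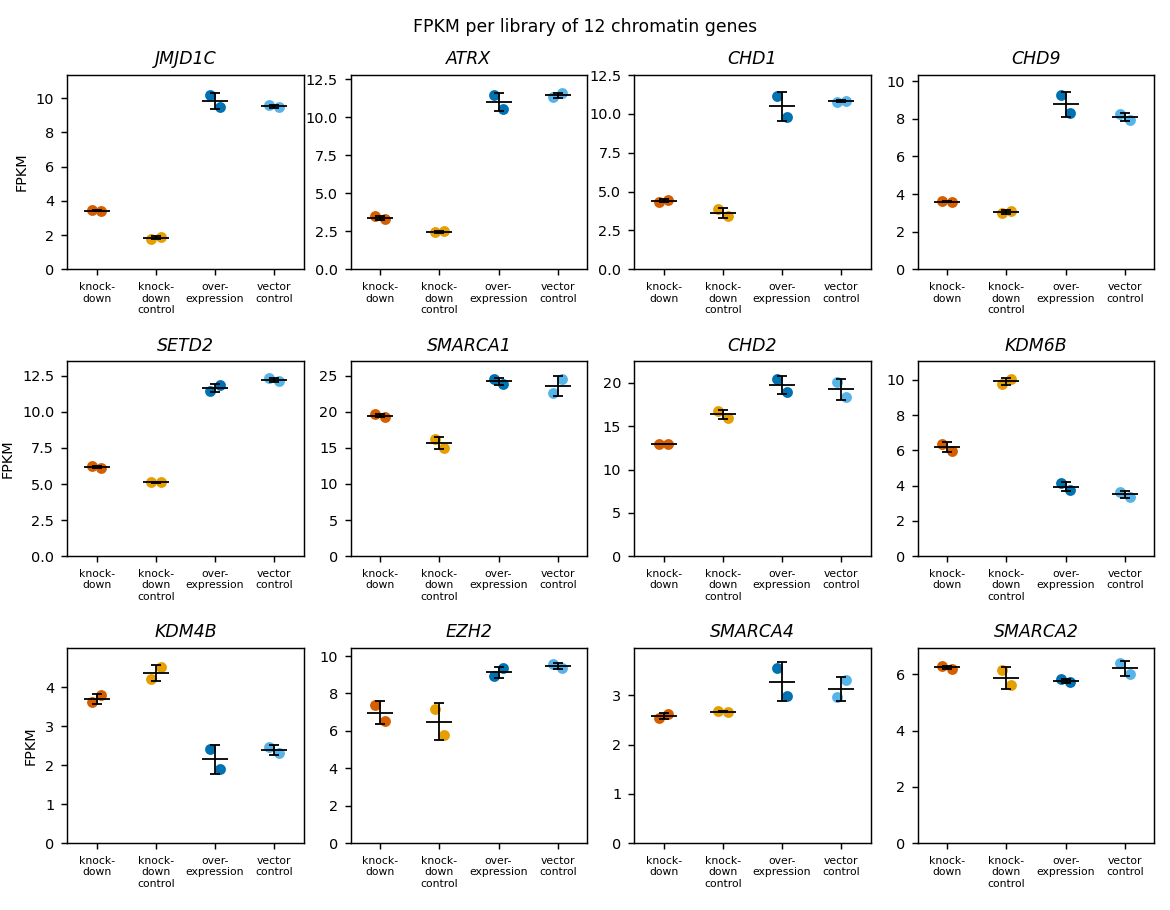
Points are FPKM in each of the 2 libraries of a group, horizontal bars the group mean and whiskers its SD, for 12 of the genes, on axes that start at 0. JMJD1C, ATRX, CHD1, CHD9 and SETD2 are low in the knockdown and knockdown control libraries, KDM6B and KDM4B are high there, and SMARCA2 is at a similar level in the 4 groups.

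The knockdown control was compared with the vector control to show where the controls of the 2 experiments differ. Knockdown was compared with the vector control to show whether the same genes differ in fold changes that leave out the knockdown control libraries. The groups differ in treatment and in any batch they were handled in, which cannot be told apart. These comparisons share libraries with each other and with the comparison of knockdown with its own control, so their values are given side by side and no overlap is counted as support.

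In the knockdown control 35 of the 48 genes fell, against 31.8% of all genes tested, and 2 rose, against 36.8%, each relative to the vector control. With knockdown 34 fell relative to the vector control, against 28.8% of all genes tested, and 2 rose, against 34.1%. The median log2 fold change of the 48 genes was -0.37 in the knockdown control and -0.34 with knockdown, beside 0.04 and 0.03 over all genes tested. All libraries of the knockdown control lay below those of the vector control in 39 of the 48 genes and above them in 4, beside 39.4% and 45.4% of all genes tested. The libraries of the knockdown group did so in 40 and 3 genes, beside 38.1% and 44.0%. Under scaling to equal library sums of FPKM (TPM) the median of all genes moved to -0.15 for the knockdown control and -0.12 for knockdown, each against the vector control, and the medians of the 48 genes to -0.57 and -0.49. Of the calls over all genes, 53.6% were higher in the knockdown control and 54.2% with knockdown, against 31.7% and 31.9% under TPM scaling.

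Among writers of H3K4 methylation, 6 of 7 fell in the knockdown control and 6 of 7 with knockdown, each against the vector control, with medians of -0.42 and -0.46. After the length and GC correction described further on, 4 fell in the knockdown control and 5 with knockdown, with medians of -0.23 and -0.22. KMT2A, the leukaemia-linked MLL gene, averaged 3.78 ± 0.434 FPKM with knockdown, 3.39 ± 0.208 FPKM in the knockdown control, 6.002 ± 0.177 FPKM with overexpression and 5.57 ± 0.726 FPKM in the vector control (SD, n = 2). KMT2C and KMT2D, which act on enhancers, had -0.61 ± 0.09 and -0.42 ± 0.10 in the knockdown control (limma adjusted p = 8.79e-05 and 0.00237). SETD7, which adds a single methyl group, had -0.62 ± 0.06, while KMT2B had -0.23 ± 0.06 and SETD1A -0.18 ± 0.07. SETD1A lost its call without vector control replicate 1 (-0.09, limma adjusted p = 0.328) and without any of 6 other libraries. SETD1B was not called in either comparison, at -0.05 ± 0.09 in the knockdown control and -0.16 ± 0.09 with knockdown. The relatives KMT2E and SETD5, which carry a SET domain without an established histone methyltransferase activity, both fell in both comparisons.

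All 5 H3K36 methyltransferases fell in both comparisons, with medians of -0.52 in the knockdown control and -0.40 with knockdown. After the length and GC correction 2 of the 5, SETD2 and ASH1L, fell in each comparison, and the medians were -0.04 and -0.07. SETD2 was -1.11 ± 0.06 in the knockdown control (limma adjusted p = 2.34e-08) and -0.88 ± 0.06 with knockdown (limma adjusted p = 2.62e-07), a mean of 5.12 FPKM in the knockdown control against 12.2 FPKM in the vector control. ASH1L had 5.17 and 6.24 FPKM in knockdown libraries, 4.95 and 4.71 FPKM in knockdown control libraries, 10.2 and 9.45 FPKM in overexpression libraries and 10.5 and 9.85 FPKM in vector control libraries. Its fold change was -0.94 ± 0.08 in the knockdown control (limma adjusted p = 1.05e-06) and -0.74 ± 0.08 with knockdown (limma adjusted p = 1.14e-05). NSD1, NSD2 and NSD3, which dimethylate H3K36, had values of -0.31 to -0.52 in the knockdown control. With knockdown NSD2 had -0.16 ± 0.06, a call lost without either knockdown library or either vector control library (values of -0.13 to -0.18, limma adjusted p = 0.0533 to 0.137), and its sign turned after the correction (0.09, limma adjusted p = 0.179).

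Both H3K27 methyltransferases fell in both comparisons, and 2 of 4 H3K9 methyltransferases in the knockdown control. EZH2 was -0.49 ± 0.09 in the knockdown control (limma adjusted p = 0.000392) and -0.39 ± 0.09 with knockdown (limma adjusted p = 0.00215), and no knockdown or knockdown control library reached the vector control libraries. Its paralogue EZH1 averaged 4.25 ± 0.341 FPKM with knockdown, 4.396 ± 0.853 FPKM in the knockdown control, 7.45 ± 0.835 FPKM with overexpression and 7.50 ± 0.00457 FPKM in the vector control (SD, n = 2), and it fell by 0.66 ± 0.11 in the knockdown control and by 0.70 ± 0.11 with knockdown. Of the 4 H3K9 methyltransferases, SETDB1, which silences retroelements, fell in both comparisons and SUV39H1, which trimethylates H3K9 in heterochromatin, fell in the knockdown control (-0.19 ± 0.06, and -0.12 without knockdown control replicate 2, limma adjusted p = 0.179; the call was also lost without either vector control library). EHMT1 and EHMT2, the GLP and G9a enzymes of H3K9 dimethylation, were not called in either, at -0.16 ± 0.07 and 0.09 ± 0.06 in the knockdown control. After the length and GC correction both H3K27 methyltransferases still fell in both comparisons. Of the 4 H3K9 methyltransferases 3 then fell in the knockdown control, with a median of -0.29, beside -0.17 as deposited. The corrected value of SUV39H1 there was -0.41 (limma adjusted p = 0.00019). DOT1L, the H3K79 methyltransferase, was called with knockdown (-0.29 ± 0.09, limma adjusted p = 0.0126) and not in the knockdown control (-0.19 ± 0.09, limma adjusted p = 0.0723). The DOT1L call was lost without knockdown replicate 1 (-0.17, limma adjusted p = 0.146) or vector control replicate 1 (-0.27, limma adjusted p = 0.0630). Whether the role groups differ from each other was not tested, and their counts are to be read against the shares of all genes tested.

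Of 12 demethylases tested, 5 fell and 2 rose in the knockdown control, where 31.8% and 36.8% of all genes tested did. The same counts were found with knockdown, where 28.8% and 34.1% of all genes tested fell and rose. JMJD1C was -1.89 ± 0.07 in the knockdown control (limma adjusted p = 2.09e-09), 5.15-fold lower in mean FPKM, and -1.25 ± 0.07 with knockdown (limma adjusted p = 7.14e-08), 2.78-fold lower. KDM5A, an H3K4 demethylase, fell by 0.73 ± 0.06 in the knockdown control, whereas its paralogue KDM5B had 0.01 ± 0.08. KDM3A, KDM3B and KDM2A also fell in the knockdown control (KDM2A by 0.20, a call lost without vector control replicate 1, at -0.16 with a limma adjusted p of 0.0825), and KDM1A, KDM2B, KDM4A and KDM4C were not called. Under TPM scaling KDM1A, KDM2B and KDM4A also fell there.

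KDM6B rose by 1.27 ± 0.07 in the knockdown control (limma adjusted p = 3.74e-08), to 282% of the vector control mean, and by 0.67 ± 0.07 with knockdown (limma adjusted p = 9.89e-06). KDM4B, which removes methyl groups from H3K9 and H3K36, had 3.61 and 3.79 FPKM in knockdown libraries, 4.22 and 4.51 FPKM in knockdown control libraries, 2.41 and 1.89 FPKM in overexpression libraries and 2.47 and 2.30 FPKM in vector control libraries. It rose by 0.66 ± 0.09 in the knockdown control (limma adjusted p = 5.07e-05) and by 0.48 ± 0.09 with knockdown (limma adjusted p = 0.000839). KDM6B and KDM4B were the 2 of the 48 genes that rose in each of these comparisons, and their knockdown and knockdown control libraries did not overlap the other 4.

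All 8 CHD remodelers fell in the knockdown control and 7 of 8 with knockdown, with medians of -0.51 and -0.42. After the length and GC correction 4 of 8 fell in each comparison, with medians of -0.19 and -0.18. CHD1, which binds methylated H3K4 through its chromodomains, had 4.35 and 4.49 FPKM in knockdown libraries, 3.86 and 3.42 FPKM in knockdown control libraries, 11.2 and 9.82 FPKM in overexpression libraries and 10.8 and 10.9 FPKM in vector control libraries. CHD1 was -1.35 ± 0.08 in the knockdown control (limma adjusted p = 3.59e-08) and -1.12 ± 0.08 with knockdown (limma adjusted p = 2.82e-07). CHD9 was -1.17 ± 0.07 in the knockdown control (limma adjusted p = 6.98e-08) and -0.99 ± 0.07 with knockdown (limma adjusted p = 4.87e-07), with both groups below every overexpression and vector control library. CHD6, CHD7 and CHD8, of the same subfamily as CHD9, had -0.49 to -0.56 in the knockdown control. CHD3 and CHD4 had small falls of 0.19 and 0.18 there, CHD2 fell by 0.22 (a call lost without vector control replicate 1, at -0.16 with a limma adjusted p of 0.0681), and CHD3 was the gene not called with knockdown (-0.10 ± 0.05, limma adjusted p = 0.0853). With knockdown the CHD4 fall of 0.17 was lost without knockdown replicate 1 (-0.13, limma adjusted p = 0.0729) or vector control replicate 1 (-0.14, limma adjusted p = 0.0653).

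The SWI/SNF ATPases were not called in either comparison. SMARCA4 had -0.17 ± 0.09 in the knockdown control (limma adjusted p = 0.105) and -0.21 ± 0.09 with knockdown (limma adjusted p = 0.0621). SMARCA2 had -0.07 ± 0.07 in the knockdown control (limma adjusted p = 0.405) and 0.01 ± 0.07 with knockdown (limma adjusted p = 0.938), with values that overlapped. Under TPM scaling both fell in the knockdown control, SMARCA4 to -0.33 and SMARCA2 to -0.26 (limma adjusted p = 0.00580 and 0.00808), and after the length and GC correction SMARCA2 had the other sign. All 3 ISWI genes fell in both comparisons, SMARCA5 by 0.79 ± 0.07, BPTF by 0.76 ± 0.07 and SMARCA1 by 0.56 ± 0.06 in the knockdown control. After the length and GC correction their median there went to -0.29, beside -0.76, and SMARCA1 was not called with knockdown against the vector control (-0.08, limma adjusted p = 0.216). ATRX was -1.84 ± 0.07 in the knockdown control (limma adjusted p = 2.09e-09), 4.63-fold lower in mean FPKM, and -1.51 ± 0.07 with knockdown (limma adjusted p = 2.42e-08), 3.39-fold lower. INO80, which spaces nucleosomes and acts on the variant H2A.Z, fell by 0.34 ± 0.07 in the knockdown control and by 0.39 ± 0.07 with knockdown.

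**Figure D3:**
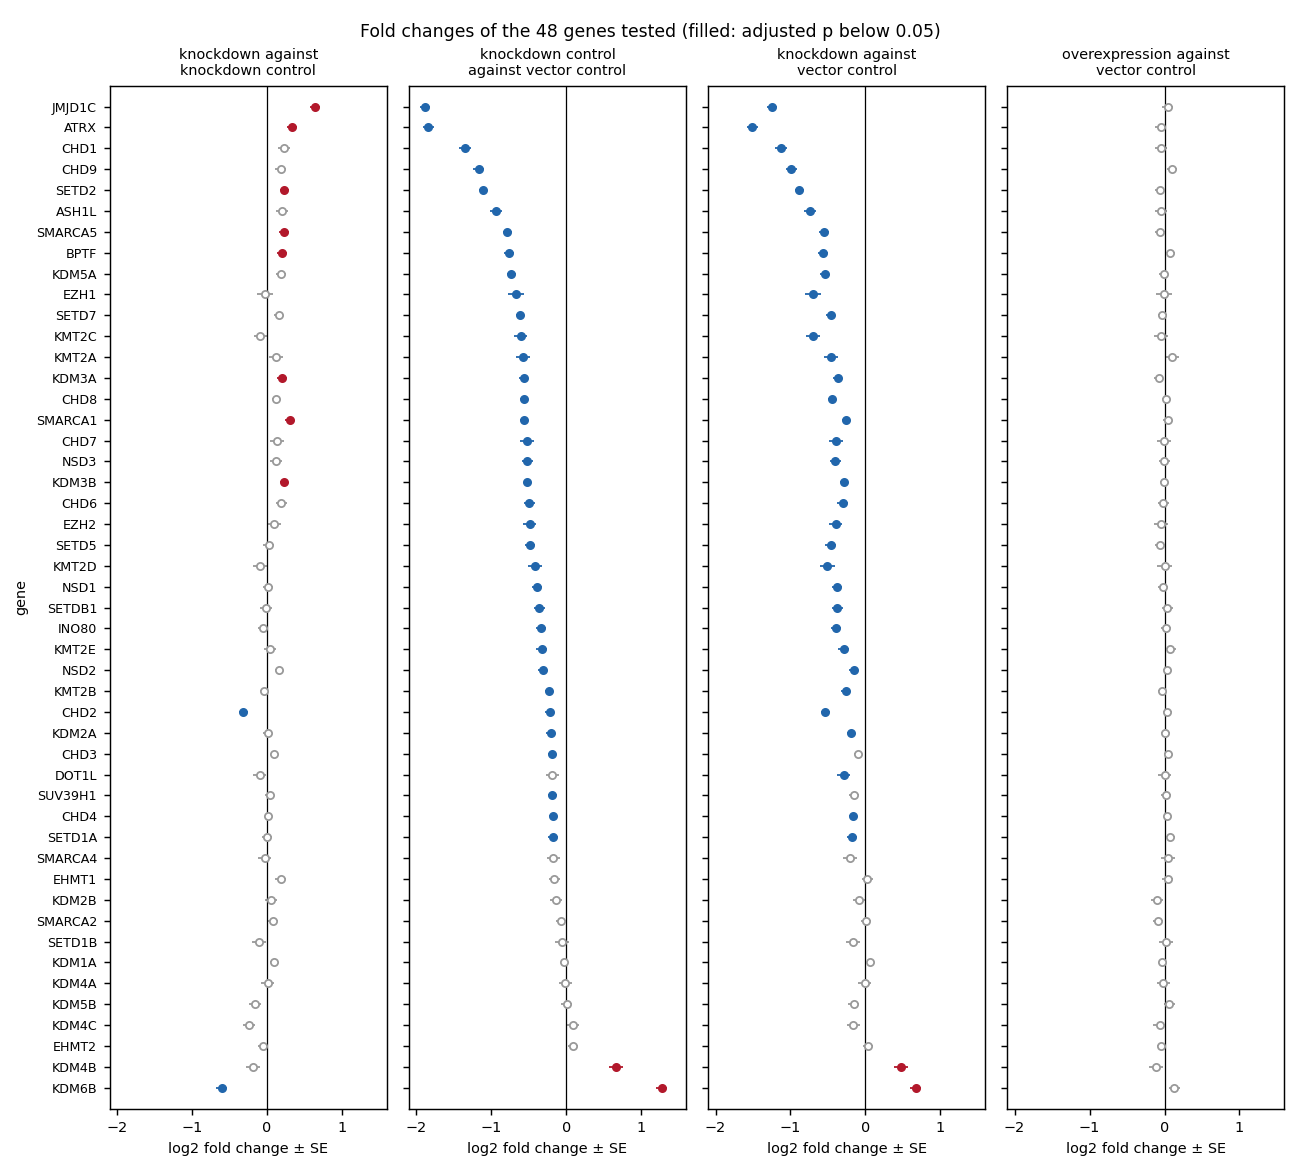
Points are the log2 fold change of each of the 48 genes tested, with bars of 1 SE, in 4 comparisons; filled red points rose and filled blue points fell at a limma adjusted p below 0.05, and open grey points were not called. Genes are ordered by the second panel, the knockdown control set against the vector control, where 35 fell and 2 rose, and every point of the overexpression panel is open and near 0.

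The effects of gain and loss were set against each other by testing the overexpression effect minus the knockdown effect. Of the 48 genes 4 were called, against 10.2% of all genes tested. The difference was 0.74 ± 0.10 for KDM6B (limma adjusted p = 0.00100) and 0.35 ± 0.09 for CHD2 (limma adjusted p = 0.0241). It was -0.60 ± 0.10 for JMJD1C (limma adjusted p = 0.00328) and -0.39 ± 0.10 for ATRX (limma adjusted p = 0.0293). In these 4 genes the overexpression effect alone lay between -0.05 and 0.13, so the difference is nearly the size of the knockdown effect with its sign turned. The calls for KDM6B and JMJD1C held in all 19 alternatives run, that for CHD2 in 12 and that for ATRX in 9. Without knockdown replicate 1, knockdown replicate 2 or vector control replicate 2, both the CHD2 and the ATRX calls were lost, with values of 0.35, 0.35 and 0.29 for CHD2 and -0.35, -0.42 and -0.37 for ATRX. The CHD2 call was also lost without knockdown control replicate 1 (0.32) or overexpression replicate 1 (0.30), and the ATRX call without either knockdown control library (-0.37 and -0.40), overexpression replicate 2 (-0.33) or vector control replicate 1 (-0.40). After the length and GC correction ATRX had -0.23 (limma adjusted p = 0.180) and was not called, and KDM6B, CHD2 and JMJD1C had 0.66, 0.41 and -0.46 and were called. Of the calls over all genes 60.6% were higher, against 48.1% under median-of-ratios scaling, 42.7% under TPM scaling and 47.4% by voom.

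The chromatin genes are long, and their fold changes followed base composition. The median mRNA length (longest protein-coding transcript) was 7360 bases in the 48 genes, against 3395 bases in all genes tested, and 45 of the 48 were longer than that median. Their median GC content was 47.4%, against 48.7%. In the knockdown control against the vector control, log2 fold change was higher at higher GC content across the 48 genes (Spearman rho 0.70) and across the 10632 genes with these values (rho 0.53), and lower at greater length in both (rho -0.50 and -0.53). With knockdown against its own control the relation with GC ran the other way, with rho -0.66 in the 48 genes and -0.46 in all genes. After the length and GC correction described further on, rho with GC in the 48 genes was 0.31 in the knockdown control against the vector control. It was -0.28 with knockdown against its own control. Over all genes the corrected values were -0.03 and 0.05. The knockdown control libraries enter the comparison with the vector control and that with knockdown with opposite sign, so the opposite slopes are not independent. The rho values are descriptions across genes, which share libraries and are not independent replicates.

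Within classes of GC content the median of the chromatin genes lay below that of all genes in each class. In the lowest GC class (30.2% to 44.2%, with classes of equal gene number), 12 of 13 fell in the knockdown control, where 56.9% of all genes of that class did. Their median was -0.79, beside -0.25 over all genes of that class. In the middle class 18 of 22 fell, where 29.5% of all genes did, with a median of -0.44, beside 0.03. In the highest class (54.3% to 74.5%) 5 of 13 fell, where 9.17% of all genes did, with a median of -0.17, beside 0.29. In that class 2 rose, and the share of all genes that rose was not counted by class. The classes were not matched for mRNA length. ATRX, at 36.8% GC, and CHD1, at 38.1%, were among the members of lowest GC content, and KDM6B and KDM4B, at 62.4% and 61.2%, among those of high GC content. DOT1L, KMT2B and SETD1A, at 62.7%, 63.5% and 62.3% GC, had -0.19, -0.23 and -0.18 in the knockdown control.

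**Figure D4:**
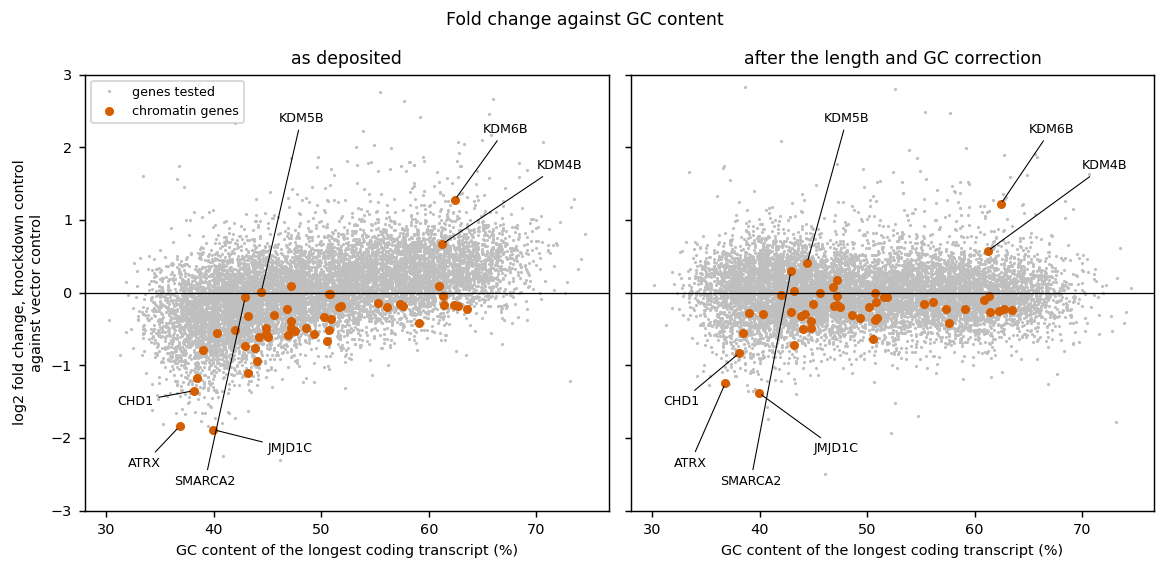
The log2 fold change between knockdown control and vector control is plotted against GC content for all genes tested (grey) and the chromatin genes (orange), as deposited on the left and after the length and GC correction on the right; 3 genes beyond the axis limits are not drawn. On the right the grey cloud has no slope because the correction removes it over the genes tested. There JMJD1C, ATRX and CHD1 remain lowest and KDM6B and KDM4B highest among the chromatin genes, and SMARCA2 and KDM5B lie above 0.

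After each library was corrected for the trend of expression with length and GC, most but not all calls were found again. In the knockdown control against the vector control, 28 of the 48 genes fell, against 30.2% of all genes, and 4 rose, against 28.4%, with a median of -0.22. With knockdown against the vector control, 26 fell, against 27.3%, and 3 rose, against 27.8%, with a median of -0.18. Of the 35 genes that fell in the knockdown control as deposited, 24 also fell after correction. The 11 that did not were CHD2, CHD4, CHD6, CHD7, KDM2A, KMT2A, KMT2C, KMT2E, NSD1, NSD2 and NSD3. The 4 new ones were DOT1L, EHMT1, KDM1A and SMARCA4. With knockdown against the vector control, 24 of the 34 fell in both fits. CHD4, CHD6, CHD7, KDM2A, KMT2A, KMT2E, NSD1, NSD2, NSD3 and SMARCA1 lost their call, and SMARCA4 and SUV39H1 gained it.

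JMJD1C (-1.38), ATRX (-1.24), CHD1 (-0.83), SETD2 (-0.72) and EZH1 (-0.64) had the lowest corrected log2 fold changes in the knockdown control. EZH2 kept its value, at -0.49 in both fits. SMARCA2 changed sign to 0.30 (limma adjusted p = 0.00268) and KDM5B moved to 0.40 (limma adjusted p = 0.000396), and both were then called as higher. KDM6B had 1.21 and KDM4B 0.57 after correction.

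The comparison of knockdown with its own control changed more. After correction 4 genes rose, against 9.11% of all genes, and 4 fell, against 7.74%. JMJD1C (0.51), KDM3B (0.23) and SMARCA1 (0.20) rose in both fits, and KDM6B (-0.54) and CHD2 (-0.36) fell in both. ATRX, BPTF, KDM3A, SETD2 and SMARCA5 were no longer called, with corrected values of 0.10 to 0.19. EHMT1 (0.23) rose, and KDM4C (-0.27) and KDM5B (-0.24) fell, in the corrected fit alone.

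Partners and relatives of the 49 genes were described next, from 13 lists of complex subunits and enzyme families holding 161 genes, of which 150 were tested. With overexpression their median log2 fold change was -0.01. With knockdown against its own control 28 rose and 5 fell (median 0.06), where 11.3% and 10.9% of all genes tested did. In the knockdown control set against the vector control 30 rose and 77 fell (median -0.17), where 36.8% and 31.8% of all genes did. With knockdown against the vector control 29 rose and 54 fell (median -0.08), where 34.1% and 28.8% of all genes did. After the length and GC correction the counts were 19 and 2 (beside 9.11% and 7.74% of all genes), 15 and 67 (beside 28.4% and 30.2%) and 19 and 47 (beside 27.8% and 27.3%). The counts of single lists below are to be read against the same shares of all genes. For the difference of the gain and loss effects, 2 were called higher and 11 lower. Over all 10648 genes tested 10.2% were called for that difference, 659 higher and 428 lower.

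Subunits of PRC2 rose in 4 of 9 cases with knockdown against its control and none fell. SUZ12, the scaffold of PRC2, averaged 18.7 ± 1.0 FPKM with knockdown and 14.4 ± 0.38 FPKM in the knockdown control (SD, n = 2), a rise of 0.36 ± 0.06 (limma adjusted p = 0.00141). The histone-binding subunits RBBP4 and RBBP7 rose by 0.25 ± 0.05 and 0.22 ± 0.05, and MTF2, a Polycomb-like subunit, by 0.28 ± 0.08. In the knockdown control against the vector control 6 of the 9 PRC2 genes fell and 2 rose, with SUZ12 at -0.68 ± 0.06. After the correction 3 rose with knockdown, and 4 fell and 1 rose in the knockdown control.

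Other SNF2-family ATPases also rose with knockdown, 5 of 12 tested with none lower. HLTF, a fork-remodeling ubiquitin ligase, averaged 11.1 ± 0.26 FPKM with knockdown and 7.43 ± 0.56 FPKM in the knockdown control (SD, n = 2), a rise of 0.52 ± 0.06 (limma adjusted p = 0.000143). SMARCAD1, which acts at replication forks and repeats, rose by 0.48 ± 0.06 (limma adjusted p = 0.000262) and ERCC6L by 0.34 ± 0.07. In the knockdown control against the vector control 10 of the 12 fell, among them BTAF1, a regulator of TATA-binding protein, at -1.17 ± 0.08. After the correction 3 of the 12 rose with knockdown and 6 fell in the knockdown control.

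Of 23 SWI/SNF accessory subunits, 5 rose and 1 fell with knockdown against its control, and 15 fell and 2 rose in the knockdown control against the vector control. After the correction 3 rose with knockdown, and 13 fell and 2 rose in the knockdown control. ARID2, a subunit of the PBAF form, had 0.40 ± 0.07 with knockdown and -0.87 ± 0.07 in the knockdown control. BRD7, of the same form, had 0.23 ± 0.05 and -0.42 ± 0.05. Whether the accessory subunits differ from the ATPases was not tested. RSF1, the partner of SMARCA5, averaged 2.5 ± 0.013 FPKM with knockdown, 1.79 ± 0.012 FPKM in the knockdown control, 6.8 ± 0.22 FPKM with overexpression and 6.72 ± 0.12 FPKM in the vector control (SD, n = 2). It rose by 0.33 ± 0.07 with knockdown and was -1.47 ± 0.07 in the knockdown control, and 6 of 7 ISWI partners fell in the knockdown control.

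Of 9 histone acetyltransferases, 2 rose with knockdown against its control and 8 fell in the knockdown control against the vector control. KAT6A, which acetylates H3, had 0.32 ± 0.07 with knockdown and -0.86 ± 0.07 in the knockdown control. The 13 deacetylases tested had 6 rises and 2 falls in the knockdown control, with a median of 0.15, but 3 rises and 4 falls with a median of -0.09 after the length and GC correction, and SIRT1, an NAD-dependent deacetylase, had -0.97 ± 0.07 there. The 13 COMPASS and MLL subunits, which partner the H3K4 writers, had 4 rises and 6 falls in the knockdown control and 1 of each with knockdown. The 20 INO80, SRCAP and TIP60 subunits had 7 of each in the knockdown control, and 3 rises and 2 falls with knockdown, shares near those of all genes. After correction they had 2 rises and 6 falls in the knockdown control, and 0 rises and 2 falls with knockdown, where as deposited TFPT fell by 0.50 ± 0.08 and INO80B by 0.31 ± 0.05.

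NuRD subunits rose in 2 of 10 cases with knockdown, HDAC2 by 0.23 ± 0.06 and MBD2 by 0.18 ± 0.06, and had 2 rises and 2 falls in the knockdown control. The 13 other histone lysine methyltransferases had 2 rises with knockdown, SETD3 and SUV39H2, and 3 rises and 6 falls in the knockdown control. The 9 other demethylases had 1 rise with knockdown, HR at 0.45 ± 0.08, and 2 rises and 4 falls in the knockdown control. None of 5 DNA methylation genes and none of 7 protein arginine methyltransferases was called with knockdown, and in the knockdown control 3 of the DNA methylation genes fell, while 2 of the arginine methyltransferases rose and 2 fell. After the correction 0 arginine methyltransferases rose and 4 fell there, and with knockdown 2 DNA methylation genes and 1 arginine methyltransferase rose.

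**Figure D5:**
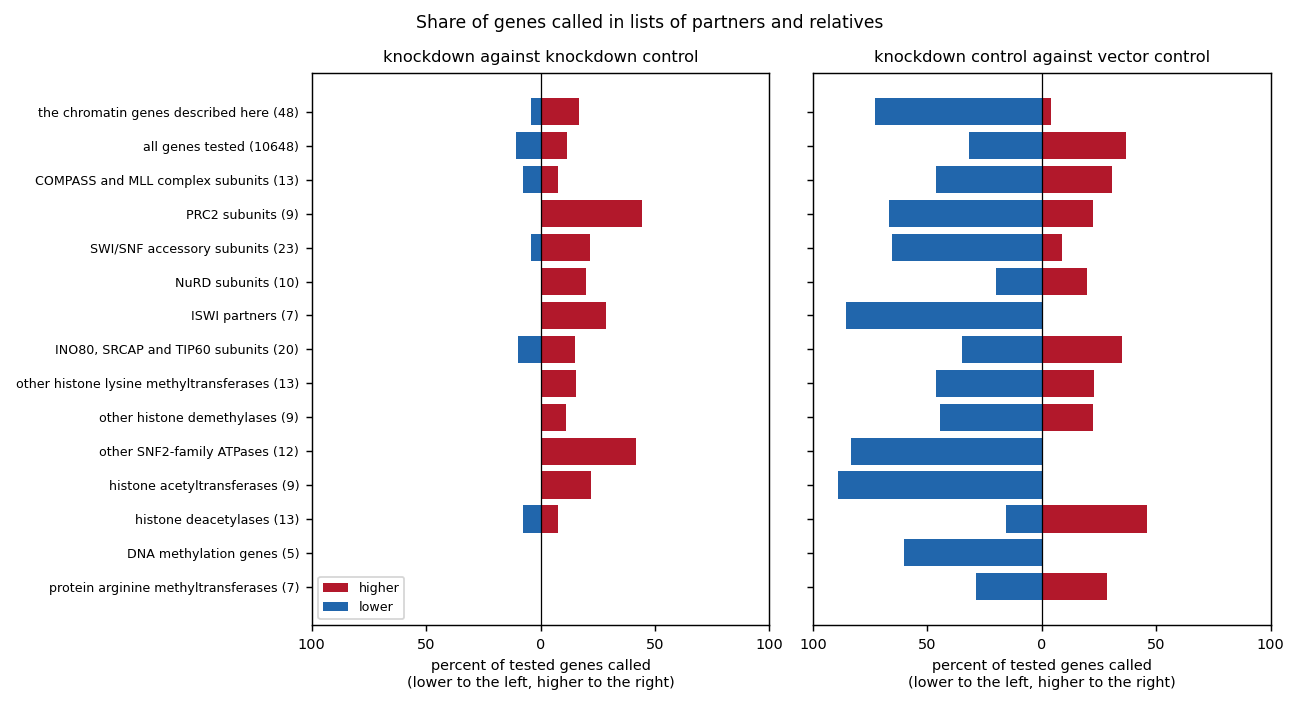
Bars give the percent of tested genes called lower (blue, to the left) and higher (red, to the right) in each list, with the number tested in parentheses, in 2 panels, knockdown against its control (left) and the knockdown control set against the vector control (right). The chromatin genes described here and all genes tested head the plot; PRC2 subunits and other SNF2-family ATPases have red bars and no blue bar on the left, and ISWI partners, SNF2-family ATPases and acetyltransferases have blue bars and no red bar on the right.

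Some values rest on exons that other genes share. In GENCODE 29, CHD4 shares 53.5% and KDM4A 48.5% of their exonic bases with other annotated genes, SUV39H1 20.3%, KMT2A 18.9%, SMARCA5 13.5% and SETDB1 13.4%. No source used here gives the strand use of the counting, so reads of such neighbours cannot be told apart. JMJD1C (chr10:63167221-63521850, minus strand), KDM6B (chr17:7839904-7854796, plus strand), ATRX (chrX:77504878-77786233, minus strand) and CHD1 (chr5:98853985-98928957, minus strand) share between 0% and 3.5%.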

How the data were processed

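The authors deposited FPKM values (fragments per transcript length and library total) in a table of 8 libraries, per the labels, and featureCounts, HTSeq, HISAT2, R 3.2.0 and the build hg38 (GRCh38) are named per the submitters' processing notes. No source used here gives their roles, the annotation or strand use. The 49 members, the lists and the tests were chosen with earlier results of these data known. FPKM values were whole multiples of a per-read step (tolerance 0.02 reads) for all 17056 genes, which gave 33662221 to 37508996 reads a library. Limma 3.58.1 (R 4.3.3; lmFit, contrasts.fit, eBayes with trend, two-sided) was fitted to log2(FPKM + 1) of the 10648 genes averaging 1 FPKM or more, with 8 libraries and 4 group means in a single fit (4 residual degrees of freedom). P-values were adjusted by Benjamini-Hochberg over all genes tested, at a threshold of 0.05. FPKM divides by library total, so large changes elsewhere can shift a gene. Permuting labels of 2 against 2 cannot reach the threshold. Chi-square per degree of freedom between replicates was 5.05 to 5.78, above sampling noise, so they were kept separate. The length and GC correction regressed each library's deviation from the mean of 8 on natural splines (5 degrees of freedom each) of mRNA length and GC (GENCODE 29), with values for 99.85% of genes tested. The fit was tested on simulated data. Alternatives were TPM, quantile and median-of-ratios scaling, a minimum of 5 FPKM, no filter, pseudocounts of 0.1 and 0.5, the compared groups alone, a replicate block, voom on recovered reads, the correction with and without the block, and leaving out each library. Values in every library are given for the 6 members with the largest change in each direction among those called, per comparison (the 3 smallest p where fewer than 3 were called), and for EZH2, SMARCA4 and SMARCA2; of the lists, up to 3 genes by p with knockdown, and any other gene with its value.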

Additional observations from a re-analysis of the deposited data

How the results depend on the processing

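Most counts of called members stayed within 1.5 times of those reported. Members called in knockdown against knockdown control were 10, became 21 by voom on recovered reads, and ran from 5 (without knockdown replicate 2) to 8 when each library was left out, with 6 without knockdown control replicate 2. For the overexpression effect minus the knockdown effect, 4 became 8 under median-of-ratios scaling, 8 under TPM scaling and 12 by voom, and 2 to 3 when libraries were left out; the compared groups alone were not run there, since it needs all 4 groups. Of the calls, 4 of 10 in knockdown against its control, 24 of 37 in the knockdown control and 24 of 36 with knockdown, both against the vector control, passed in every alternative. SMARCA2 in the knockdown control against the vector control turned to 0.2959 under the length and GC correction, with or without the block. Of the members called there as deposited, CHD2 and KMT2E changed sign, at 0.08 and 0.02, and were then not called. Of those called with knockdown against the vector control NSD2 did, at 0.09. Members not called as deposited also turned, among them EHMT2 in the knockdown control (0.09 to -0.10) and KDM5B with knockdown (-0.16 to 0.17), each against the vector control. Correlations of same-numbered replicate deviations ran from -0.061 to 0.062, so no shared deviation of same-numbered libraries was seen. The labels do not say whether same-numbered libraries were handled together. A replicate block called 9 members in knockdown against its control, and 2315 of all genes tested. The cause of these shifts was not tested. Groups of 2 limit small differences, and KDM7A was too low to test.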
